A study of Homo sapiens with 12 samples.

Results

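The 40 genes described here belong to the integrated stress response, and were chosen by name out of the 64253 genes of a count table. They comprise 5 genes for kinases of the translation factor eIF2 and for subunits of its phosphatase, 8 for transcription factors, 6 for enzymes of serine and one-carbon metabolism, 6 for other enzymes of amino acid metabolism, 7 for amino acid transporters, and 8 for further effectors and secreted products. Earlier results of these data were known when the 40 were chosen, so their counts beside shares of all genes are a description. The cells were JEKO-1, an established line of mantle cell lymphoma, a human B cell cancer. RNA was taken after 48 h of culture with DMSO (the solvent of KPT-330, used as control), with choline salicylate (CS, a salicylate salt dissolved in buffer), with KPT-330 (selinexor, which blocks XPO1, or CRM1, a carrier that takes proteins and some RNAs out of the nucleus) or with KPT-330+CS, in 3 libraries per group. The title of the study concerns whether salicylates add to the action of a CRM1 inhibitor. The sources used here do not give the drug concentrations of these libraries, nor whether the CS cultures also received DMSO. They also do not say if replicate libraries are separate cultures, so a p-value here reflects only the spread among libraries, and that spread may be technical. All values come from 1 cell line, with no genetic change between the groups.

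In the integrated stress response, a kinase that senses a stress phosphorylates the initiation factor eIF2, which lowers general translation while the mRNA of the transcription factor ATF4 is translated more. EIF2AK3 (PERK) answers to unfolded protein in the endoplasmic reticulum (ER), EIF2AK4 (GCN2) to uncharged tRNA when amino acids run short, and EIF2AK1 (HRI) to lack of heme and to mitochondrial stress. ATF4, alone or with partners such as DDIT3 (CHOP) and the C/EBP proteins, switches on genes for amino acid synthesis, amino acid uptake and redox control, and PPP1R15A (GADD34) with its constitutive relative PPP1R15B directs the phosphatase that turns eIF2 back on. Because ATF4 is set largely at translation, its mRNA is an incomplete readout of its activity, and neither eIF2 phosphorylation nor protein was measured here.

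Total counts per library were 35325563 to 59490178. Levels below are CPM, the reads of a gene scaled to library size, with library sizes adjusted by TMM, in the order of replicates 1 to 3. Levels of different genes are compared only as CPM per kilobase of gene length (RPKM). Changes are edgeR log2 fold changes ± standard error from 1 fit over all 12 libraries, and a gene passed where its Benjamini-Hochberg adjusted p from edgeR's quasi-likelihood test was 0.05 or less over the 19460 genes tested. The slope of log2 reads on GC content differed between replicates, from -0.33 to 0.09 log2 units per 10 GC points among the DMSO libraries, -0.24 to 0.06 with CS, 0.21 to 0.24 with KPT-330 and -0.16 to 0.14 with KPT-330+CS. Between libraries of a group, the chi-square per gene was 13.8 to 61.6 with DMSO and 8.69 to 34.2 with CS. It was 2.33 to 3.55 with KPT-330 and 4.71 to 29.3 with KPT-330+CS. The fit shares 1 spread per gene among all groups, so p-values for CS against DMSO may understate the spread of those libraries. The summed level of 8 B cell and mantle cell markers was 2166 to 2460 CPM with DMSO, 2472 to 2788 with CS, 2974 to 3017 with KPT-330 and 2968 to 3128 with KPT-330+CS. That of 7 T cell markers was 1.00 to 1.26 CPM with DMSO, 0.54 to 0.79 with CS, 3.66 to 4.0 with KPT-330 and 1.76 to 2.33 with KPT-330+CS. That of 5 monocyte markers was 2.10 to 4.13 CPM with DMSO and 1.40 to 2.01 in the treated groups, with S100A9 at 0 reads throughout. That of 4 epithelial markers was 0.61 to 0.97 CPM with DMSO, 0.76 to 0.87 with CS, 2.40 to 3.34 with KPT-330 and 1.71 to 2.33 with KPT-330+CS, with KRT19 at 0 reads throughout. With KPT-330 4 of 8 B cell markers, 5 of 5 tested T cell markers and 2 of 2 tested epithelial markers rose, 2 of 3 tested monocyte markers fell, and their part in the results was not tested. In RNA of a whole culture, fewer cells of a type and less RNA per cell cannot be told apart.

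Of the 40 members, 38 had enough reads to be tested. NUPR1, a stress-induced chromatin protein gene, had 2 reads over all libraries, and ALDH1L2, a mitochondrial folate enzyme gene, had 24. For 33 members every library was over the count minimum of 0.204 CPM. The other 5 were tested because some groups were over it: CBS through the CS group, SLC6A9 and ADM2 through groups other than DMSO, and CHAC1 and VLDLR with 1 DMSO library below it. These 5 had to be higher somewhere to be tested at all, so counts are given with and without them (the 5 scarce members below).

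In the DMSO libraries the members covered a wide range per length. SHMT2, the mitochondrial serine hydroxymethyltransferase, was at 99.6 ± 28.0 RPKM (SD, n = 3), ATF4 (ENSG00000128272, chr22:39519695-39522685, hg38) at 71.8 ± 2.02 RPKM and the glutamine transporter gene SLC38A2 at 63.9 ± 7.14 RPKM. The spread of SHMT2 reached the values of ATF4, so their order is not settled. DDIT3 was at 26.6 ± 0.596 RPKM and PPP1R15B at 26.1 ± 1.75 RPKM, which did not differ beyond their spread. Among the kinases the order was EIF2AK1 at 34.8 ± 2.43 RPKM, EIF2AK3 at 7.26 ± 0.721 RPKM and EIF2AK4 at 5.17 ± 0.251 RPKM, each apart from the next by more than their SDs. ADM2 at 0.0124 ± 0.00600 RPKM, SLC6A9 at 0.0179 ± 0.00951 RPKM, VLDLR and CBS were the tested members below 0.03 RPKM, and the spread of ADM2 reached that of SLC6A9.

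With CS alone every member that passed was higher. Of the 38 tested, 13 rose and 0 fell, against 3.76% of all tested genes higher and 5.13% lower. DESeq2 also called 0 lower, beside 3.77% of all genes. Among the 33 members over the minimum in every library 10 rose and 0 fell. The median log2 fold change was 0.34 over the 38, beside -0.0082 over all tested genes. By role, 0 of 5 kinase and phosphatase genes passed, 4 of 7 transcription factor genes rose, 2 of 5 serine and one-carbon genes, 1 of 6 other amino acid enzyme genes, 2 of 7 transporter genes and 4 of 8 effector genes. With the scarce members left out, 1 of 5 other enzyme genes, 1 of 6 transporter genes and 2 of 5 effector genes rose. When only the DMSO and CS libraries were fitted 7 members were higher, beside 0.897% of all genes. With a GC correction 20 were higher, beside 10.5% of all genes, and 25 with the correction made within groups (chosen after the data were seen), beside 10.6%.

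With KPT-330 alone members passed in both directions, as did all tested genes. Of the 38 tested, 13 rose and 5 fell, where 24.7% of all tested genes were higher and 23.8% lower, with a median log2 fold change of 0.22 beside 0.041 over all tested genes. Without the 5 scarce members 11 rose and 5 fell, with a median of 0.12. Among those that fell were ASNS, PSAT1 and MTHFD2, enzymes of amino acid and one-carbon synthesis, and among those that rose were DDIT3, ATF5, GPT2 and TRIB3. The call of TRIB3 did not hold with a GC correction over all libraries. Scaled by library size alone, which shifted the median of all genes to 0.20, 17 members were higher and 3 lower, beside 34.2% and 14.9% of all genes. With a GC correction 9 were lower, beside 28.4% of all genes.

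With KPT-330+CS 24 of the 38 members were higher than with DMSO and 3 were lower, where 29.3% of all tested genes were higher and 26.2% lower. Without the 5 scarce members 20 were higher and 3 lower. The median was 0.55 (0.46 without the scarce members), beside 0.041 over all genes. By role, 4 of 5 kinase and phosphatase genes rose, 4 of 7 transcription factor genes, 2 of 5 serine and one-carbon genes, 4 of 6 other enzyme genes, 3 of 7 transporter genes and 7 of 8 effector genes. With the scarce members left out, 4 of 5 other enzyme genes, 2 of 6 transporter genes and 4 of 5 effector genes rose. The 3 that fell were MTHFD2, SLC1A5 and SLC1A4, an enzyme and a pair of neutral amino acid transporter genes. With the study's own threshold, which adds an absolute log2 fold change over 2, 3 members were higher with CS (CHAC1, SLC6A9 and ADM2, where 0.0874% of all genes were), 1 with KPT-330 (ADM2, where 2.69% were) and 4 with KPT-330+CS (these 3 and ATF5, where 3.55% were). CHAC1, SLC6A9 and ADM2 are among the 5 scarce members.

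**Figure D1:**
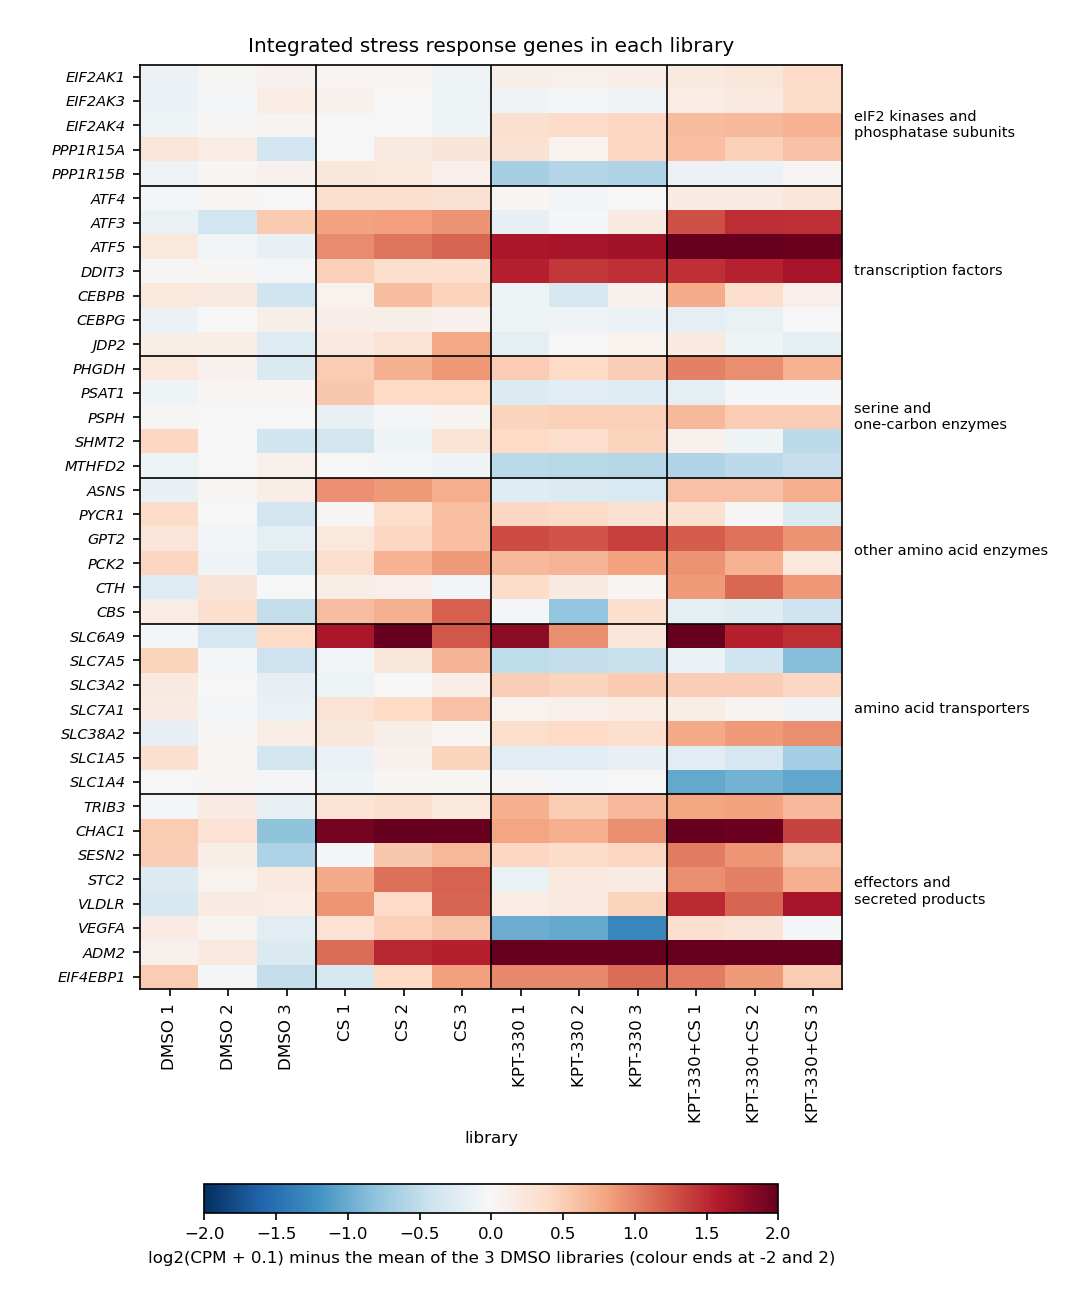
Level of each tested member in each of the 12 libraries (columns, by group and replicate) as log2 of CPM plus 0.1 minus the mean of the 3 DMSO libraries, with members in rows by role and colours ending at -2 and 2. ATF5, DDIT3 and ADM2 are red in every KPT-330 and KPT-330+CS library, VEGFA and PPP1R15B are blue with KPT-330 alone, and SLC1A4 is blue only in the 3 KPT-330+CS libraries.

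The kinase genes did not pass with CS. EIF2AK4 was at 58.5, 62.7 and 64.3 CPM with DMSO, 62.0, 62.1 and 58.4 with CS, 76.8, 80.3 and 82.2 with KPT-330 and 95.9, 97.2 and 100.3 with KPT-330+CS. All KPT-330 libraries lay above all DMSO and CS libraries, and all KPT-330+CS libraries lay above those in turn. The gene rose by 0.37 ± 0.054 (edgeR, adjusted p = 9.7e-05) with KPT-330 and by 0.66 ± 0.054 (edgeR, adjusted p = 2.63e-07) with KPT-330+CS, while its change with CS was -0.023 ± 0.054 (edgeR, adjusted p = 0.866). EIF2AK3 was at 36.2, 38.4 and 43.8 CPM with DMSO, 41.7, 39.4 and 36.7 with CS, 37.6, 38.2 and 37.3 with KPT-330 and 43.6, 45.2 and 50.9 with KPT-330+CS. The KPT-330+CS libraries were above all CS and KPT-330 libraries and overlapped DMSO, and it passed for KPT-330+CS against DMSO at 0.24 ± 0.081 (edgeR, adjusted p = 0.0221). That call was lost with DESeq2, with DESeq2's size factors and without DMSO replicate 1, DMSO replicate 2 or KPT-330+CS replicate 3. EIF2AK1, whose exons overlap those of AIMP2, was between 178 and 212 CPM with DMSO, CS or KPT-330 and passed only for KPT-330+CS against DMSO (0.27 ± 0.064) and against CS (0.28 ± 0.064).

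The phosphatase subunit genes differed from each other. PPP1R15B was at 127, 138 and 145 CPM with DMSO, 160.0, 158 and 147 with CS, 86.2, 91.1 and 88.5 with KPT-330 and 126, 126 and 138 with KPT-330+CS. With KPT-330 it was lower in all 3 libraries than in any other library, a fall by 0.62 ± 0.062 on the log2 scale (edgeR, adjusted p = 3.54e-06). With KPT-330+CS its libraries overlapped DMSO, with a change of -0.068 ± 0.061 (edgeR, adjusted p = 0.37), and it was 0.56 ± 0.062 (edgeR, adjusted p = 1.99e-05) above KPT-330 alone. The change with CS alone was 0.18 ± 0.061 (edgeR, adjusted p = 0.0829), which passed in 5 of 16 alternatives, among them both GC corrections. PPP1R15A, itself a target of ATF4 and DDIT3, was at 3.66 to 7.38 CPM and passed for KPT-330+CS against DMSO (0.54 ± 0.15) and against CS (0.42 ± 0.15).

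Among the transcription factors, ATF4 itself, the central factor, changed by a small amount. It was at 175, 185 and 181 CPM with DMSO, 226, 225 and 223 with CS, 186, 173 and 179.8 with KPT-330 and 201, 203 and 213 with KPT-330+CS. The CS libraries were above all others, the KPT-330+CS libraries lay between them and the DMSO libraries, and the KPT-330 and DMSO libraries overlapped. ATF4 rose by 0.31 ± 0.047 (edgeR, adjusted p = 0.0015), or 1.24-fold, with CS and by 0.19 ± 0.047 (edgeR, adjusted p = 0.00376) with KPT-330+CS, and its change with KPT-330 was -0.0077 ± 0.047 (edgeR, adjusted p = 0.907). With a GC correction the CS value was 0.29 and did not pass (edgeR, adjusted p = 0.0629). The call for KPT-330+CS was lost with both GC corrections, and the change with KPT-330 became 0.15 and passed when libraries were scaled by size alone.

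DDIT3, the gene of the pro-apoptotic factor CHOP, rose more with KPT-330 than with CS. It was at 34.2, 34.1 and 32.9 CPM with DMSO, 47.0, 42.9 and 42.6 with CS, 99.4, 90.4 and 93.5 with KPT-330 and 92.9, 97.7 and 106 with KPT-330+CS. No CS library reached the lowest KPT-330 library, and no DMSO library reached the lowest CS library. DDIT3 rose by 0.39 ± 0.064 (edgeR, adjusted p = 0.00271) with CS and by 1.48 ± 0.065 (edgeR, adjusted p = 2.3e-09), or 2.80-fold, with KPT-330. KPT-330+CS overlapped KPT-330 alone, with a difference of 0.066 ± 0.063 (edgeR, adjusted p = 0.432). Exons of DDIT3 overlap those of MBD6 and of MARS1, listed as MARS in the table, and the libraries do not mark strand; MARS was at -0.75 ± 0.084 with KPT-330 and 0.22 ± 0.083 with CS.

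ATF5, a relative of ATF4 that is also controlled at translation, rose in each treatment. It was at 37.3, 30.9 and 29.0 CPM with DMSO, 62.3, 68.0 and 72.6 with CS, 99.0, 102 and 104 with KPT-330 and 147, 132 and 126 with KPT-330+CS. The 4 groups did not overlap and stood in the order DMSO, CS, KPT-330, KPT-330+CS. The changes against DMSO were 1.06 ± 0.091 (edgeR, adjusted p = 2.15e-05), 1.64 ± 0.091 (edgeR, adjusted p = 1.94e-08) and 2.06 ± 0.092 (edgeR, adjusted p = 1.25e-09) in that order. Reads of ATF5 cannot be told apart from those of NUP62 and IL4I1 where their exons overlap.

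ATF3, an immediate stress factor that mostly represses, was rare and followed CS. It was at 0.780, 0.636 and 1.29 CPM with DMSO, 1.59, 1.61 and 1.70 with CS, 0.761, 0.852 and 0.997 with KPT-330 and 2.25, 2.59 and 2.56 with KPT-330+CS. DMSO and KPT-330 libraries overlapped, all CS libraries were above both, and all KPT-330+CS libraries were above CS. The change was 0.86 ± 0.22 (edgeR, adjusted p = 0.0261) with CS, -0.042 ± 0.23 (edgeR, adjusted p = 0.896) with KPT-330 and 1.46 ± 0.21 (edgeR, adjusted p = 5.67e-05) with KPT-330+CS. The CS call was lost with a fit of the compared groups alone, and without DMSO replicate 1 or 2 or any 1 of the CS libraries. CEBPB, CEBPG and JDP2 did not pass against DMSO in any treatment, with log2 fold changes from -0.14 to 0.45.

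**Figure D2:**
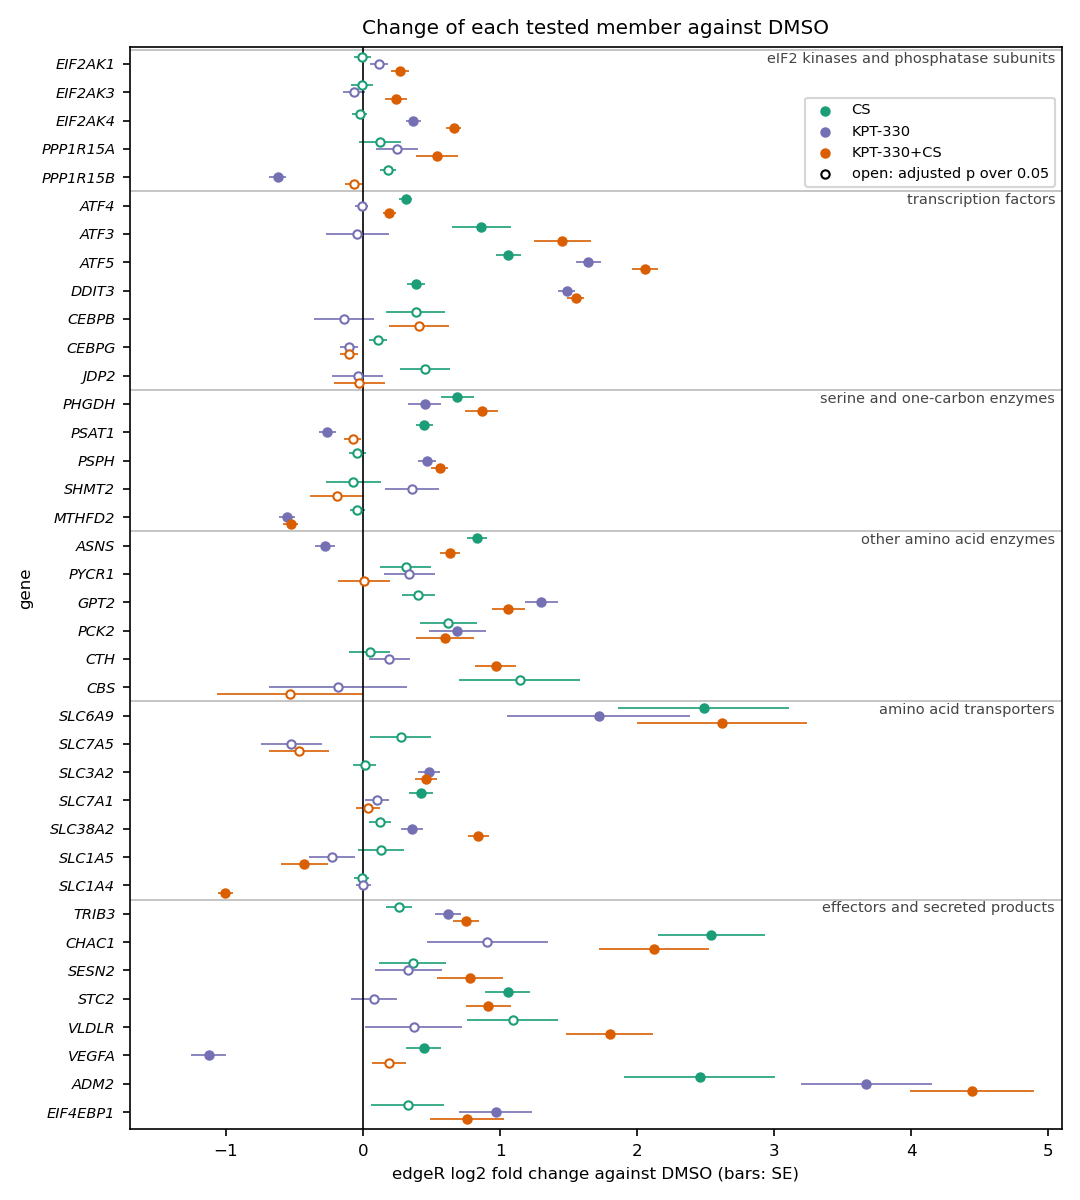
edgeR log2 fold change against DMSO (x axis) of each of the 38 tested members (rows by role) for CS, KPT-330 and KPT-330+CS, with bars of 1 standard error and open circles for an adjusted p over 0.05. No CS point that passed lies below 0, whereas KPT-330 points that passed lie on both sides, from -1.13 for VEGFA to 3.67 for ADM2.

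The serine branch starts with PHGDH, followed by PSAT1 and PSPH. PHGDH was at 90.8, 83.2 and 64.6 CPM with DMSO, 112, 129 and 143 with CS, 112, 103 and 111 with KPT-330 and 158, 149.6 and 127 with KPT-330+CS. The DMSO libraries were below all treated libraries, and the CS and KPT-330+CS libraries overlapped. PHGDH rose by 0.69 ± 0.12 (edgeR, adjusted p = 0.00379) with CS, 0.45 ± 0.12 (edgeR, adjusted p = 0.00746) with KPT-330 and 0.87 ± 0.12 (edgeR, adjusted p = 3.91e-05) with KPT-330+CS, and the CS call was lost when only the DMSO and CS libraries were fitted (edgeR, adjusted p = 0.0664). PSAT1 was at 50.1, 54.5 and 54.8 CPM with DMSO, 77.0, 70.4 and 70.1 with CS, 43.8, 45.2 and 44.2 with KPT-330 and 47.1, 52.2 and 52.1 with KPT-330+CS. It was highest in the 3 CS libraries and lowest in the 3 KPT-330 libraries, and KPT-330+CS overlapped DMSO. It rose by 0.45 ± 0.062 (edgeR, adjusted p = 0.000822) with CS and fell by 0.26 ± 0.062 on the log2 scale with KPT-330 (edgeR, adjusted p = 0.00382), a fall that was lost with scaling by library size alone. PSPH, the last step to serine, had DMSO and CS libraries between 29.4 and 33.9 CPM and rose by 0.47 ± 0.065 with KPT-330 and 0.56 ± 0.065 with KPT-330+CS.

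The one-carbon gene MTHFD2, a mitochondrial folate enzyme, was at 249, 266 and 285 CPM with DMSO, 264, 263 and 251 with CS, 184, 181 and 180.0 with KPT-330 and 176, 186 and 193 with KPT-330+CS. DMSO and CS libraries overlapped, and all libraries with KPT-330 were below them. It fell by 0.55 ± 0.057 on the log2 scale with KPT-330 (edgeR, adjusted p = 5.2e-06) and by 0.53 ± 0.057 with KPT-330+CS (edgeR, adjusted p = 3.96e-06), and with CS its change was -0.040 ± 0.057 (edgeR, adjusted p = 0.756). Its exons overlap those of SLC4A5. SHMT2 ranged from 355 to 625 CPM in the DMSO libraries alone and did not pass against DMSO in any treatment.

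ASNS, asparagine synthetase (ENSG00000070669, chr7:97852118-97872542), separated the drugs. It was at 51.1, 57.7 and 61.9 CPM with DMSO, 107, 102 and 94.4 with CS, 47.9, 46.9 and 45.7 with KPT-330 and 85.4, 85.6 and 93.8 with KPT-330+CS. The CS libraries were above all others, the KPT-330+CS libraries came next, and the KPT-330 libraries were below DMSO. ASNS rose by 0.83 ± 0.073 (edgeR, adjusted p = 2.93e-05), or 1.78-fold, with CS and by 0.63 ± 0.073 (edgeR, adjusted p = 7.09e-06) with KPT-330+CS. It fell by 0.28 ± 0.073 on the log2 scale with KPT-330 (edgeR, adjusted p = 0.00657), which was lost when libraries were scaled by size alone. Added to KPT-330, CS raised ASNS by 0.91 ± 0.073 (edgeR, adjusted p = 1.42e-06), and the interaction of the drugs was 0.085 ± 0.10 (edgeR, adjusted p = 0.618).

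GPT2, the mitochondrial alanine aminotransferase, responded to KPT-330. It was at 32.7, 26.7 and 24.0 CPM with DMSO, 31.8, 36.8 and 41.7 with CS, 68.1, 66.3 and 70.9 with KPT-330 and 64.1, 58.8 and 51.3 with KPT-330+CS. All libraries with KPT-330 were above all without it, and the CS libraries overlapped DMSO. It rose by 1.30 ± 0.12 (edgeR, adjusted p = 1.82e-06) with KPT-330 and 1.06 ± 0.12 (edgeR, adjusted p = 5.73e-06) with KPT-330+CS, and its change with CS was 0.40 ± 0.12 (edgeR, adjusted p = 0.0521), just over the threshold. CTH, cystathionine gamma-lyase, which makes cysteine, was at 2.96, 4.26 and 3.52 CPM with DMSO, 3.87, 3.82 and 3.40 with CS, 4.59, 4.02 and 3.62 with KPT-330 and 6.48, 7.97 and 6.54 with KPT-330+CS. Only the KPT-330+CS libraries stood above the others, by 0.97 ± 0.15 (edgeR, adjusted p = 8.8e-05) against DMSO.

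PCK2, the mitochondrial phosphoenolpyruvate carboxykinase, was between 3.08 and 7.46 CPM. It passed with KPT-330 (0.69 ± 0.21) and KPT-330+CS (0.60 ± 0.21), and both calls were lost without DMSO replicate 2 or 3. Without KPT-330 replicate 3 the first was lost too, and the second was also lost with no filter, with only the compared groups and without KPT-330+CS replicate 1 or 2. PYCR1, a proline synthesis gene at 14.2 to 27.8 CPM, did not pass against DMSO, and its sign with KPT-330 changed with a GC correction, from 0.34 to -0.25. CBS, at 0.0594 to 0.532 CPM, did not pass against DMSO; its name has another row for a near-identical copy on chromosome 21 with 0 reads, so its level is uncertain.

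Among the transporters SLC1A4 (ENSG00000115902, chr2:64988477-65023865), a neutral amino acid exchanger that carries serine and alanine, was lower where both drugs were present. It was at 42.8, 43.2 and 42.0 CPM with DMSO, 40.3, 43.3 and 43.7 with CS, 43.5, 41.8 and 42.8 with KPT-330 and 21.0, 22.1 and 20.8 with KPT-330+CS. The 9 libraries with DMSO, CS or KPT-330 overlapped between 40.3 and 43.7 CPM, and the 3 with both drugs lay far below, with no overlap. The change was -0.0092 ± 0.056 (edgeR, adjusted p = 0.953) with CS and 0.0012 ± 0.056 (edgeR, adjusted p = 0.988) with KPT-330. With KPT-330+CS SLC1A4 fell by 1.0 ± 0.057 on the log2 scale (edgeR, adjusted p = 8.64e-09), 2.00-fold lower. The interaction measures how far the log2 fold change with both drugs departs from the sum of the single log2 fold changes. For SLC1A4 it was -1.0 ± 0.079 (edgeR, adjusted p = 7.79e-06), and it passed in every alternative run.

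SLC38A2 (SNAT2), which brings in glutamine and other small amino acids, moved the other way. It was at 374, 425 and 468 CPM with DMSO, 490.1, 457 and 434 with CS, 534, 556 and 534 with KPT-330 and 712, 755 and 804 with KPT-330+CS. The KPT-330+CS libraries were above the KPT-330 libraries, which were above DMSO and CS. It rose by 0.36 ± 0.078 (edgeR, adjusted p = 0.002) with KPT-330 and 0.84 ± 0.078 (edgeR, adjusted p = 9.67e-07) with both drugs. SLC7A1, the cationic amino acid transporter, was at 116, 102 and 95.2 CPM with DMSO, 127, 138 and 156 with CS, 109, 112 and 115 with KPT-330 and 115, 108 and 98.8 with KPT-330+CS. Only the CS libraries were above all the others, by 0.43 ± 0.086 (edgeR, adjusted p = 0.00892) against DMSO, a call that was lost when only the DMSO and CS libraries were fitted (edgeR, adjusted p = 0.0909).

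SLC6A9, a glycine transporter gene, had 4, 2 and 6 reads in the DMSO libraries, 21, 37 and 20 with CS, 29, 13 and 7 with KPT-330 and 42, 17 and 24 with KPT-330+CS. The CS and KPT-330+CS libraries were above all DMSO libraries, and the KPT-330 libraries overlapped them. It passed with CS at 2.49 ± 0.62 (edgeR, adjusted p = 0.0264), with KPT-330 at 1.72 ± 0.67 (edgeR, adjusted p = 0.0473) and with both at 2.62 ± 0.62 (edgeR, adjusted p = 0.00275). As ratios of scaled reads these were 5.67 (95% exact interval 3.07 to 11.4), 3.33 (95% exact interval 1.75 to 6.89) and 6.29 (95% exact interval 3.42 to 12.7), with intervals for counting error only. Without DMSO replicate 1 or 2 the calls for CS and for KPT-330 were lost; the CS call was also lost without CS replicate 2 and with only the compared groups, and the KPT-330 call without KPT-330 replicate 1 or 2 and with a GC correction. Exons of SLC6A9 overlap those of CCDC24.

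SLC1A5 (ASCT2), the glutamine carrier, was at 80.0, 65.6 and 49.7 CPM with DMSO, 58.9, 68.0 and 87.0 with CS, 54.6, 54.9 and 57.7 with KPT-330 and 55.0, 50.5 and 39.9 with KPT-330+CS. The CS libraries lay above those with KPT-330 or KPT-330+CS, and the other groups overlapped. It passed against DMSO for KPT-330+CS at -0.43 ± 0.17 (edgeR, adjusted p = 0.0449), a call lost in 9 of 16 alternatives, among them the replicate block and leaving out DMSO replicate 1 or 2 or KPT-330+CS replicate 2 or 3. SLC7A5 and SLC3A2 encode the chains of the leucine exchanger LAT1. SLC3A2, at 98.9 to 159 CPM, rose by 0.48 ± 0.081 with KPT-330 and 0.46 ± 0.081 with KPT-330+CS, while SLC7A5, at 62.1 to 181 CPM, was at -0.52 ± 0.22 and -0.47 ± 0.22 and did not pass. With a GC correction SLC7A5 passed as lower with KPT-330.

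The effectors included CHAC1 and ADM2, which with the transporter gene SLC6A9 had a log2 fold change over 2 with CS. CHAC1 (ENSG00000128965, chr15:40952962-40956519) encodes an enzyme that degrades glutathione. It was at 0.329, 0.269 and 0.0727 CPM with DMSO, 1.04, 1.18 and 1.77 with CS, 0.419, 0.396 and 0.472 with KPT-330 and 1.29, 1.07 and 0.671 with KPT-330+CS. All CS libraries and all KPT-330+CS libraries were above all DMSO and KPT-330 libraries. CHAC1 rose by 2.54 ± 0.39 (edgeR, adjusted p = 0.0016) with CS and 2.12 ± 0.40 (edgeR, adjusted p = 0.000531) with KPT-330+CS, and its change with KPT-330 was 0.91 ± 0.44 (edgeR, adjusted p = 0.106). In scaled reads CS gave a ratio of 5.96 (95% exact interval 4.05 to 9.05) to DMSO, from 205 against 30 reads. STC2, a secreted glycoprotein of calcium and stress control, was at 1.72, 2.20 and 2.42 CPM with DMSO, 3.63, 4.61 and 4.88 with CS, 1.90, 2.42 and 2.36 with KPT-330 and 4.10, 4.32 and 3.55 with KPT-330+CS. It too was higher in the 6 libraries with CS than in the 6 without, by 1.05 ± 0.16 (edgeR, adjusted p = 0.0018) with CS alone and 0.92 ± 0.17 (edgeR, adjusted p = 0.000359) with KPT-330+CS, and its change with KPT-330 was 0.078 ± 0.17 (edgeR, adjusted p = 0.727).

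ADM2, the gene of the peptide hormone intermedin, rose most in the libraries with KPT-330. It had 3, 3 and 1 reads in the DMSO libraries, 10, 16 and 20 with CS, 45, 31 and 38 with KPT-330 and 85, 45 and 43 with KPT-330+CS. Every treated library was above every DMSO library, and the KPT-330 libraries were above the CS libraries. The changes were 2.46 ± 0.55 (edgeR, adjusted p = 0.0149) with CS, 3.67 ± 0.48 (edgeR, adjusted p = 3.78e-05) with KPT-330 and 4.44 ± 0.45 (edgeR, adjusted p = 2.17e-06) with both. As ratios of scaled reads these were 5.73 (95% exact interval 2.57 to 15.04), 13.3 (95% exact interval 6.25 to 33.8) and 22.5 (95% exact interval 10.7 to 56.7). The CS call was lost without CS replicate 2 or 3 and with only the compared groups, and exons of ADM2 overlap those of SBF1.

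VEGFA, the vascular growth factor, was at 14.8, 13.7 and 11.5 CPM with DMSO, 16.2, 18.5 and 19.6 with CS, 6.58, 6.44 and 5.30 with KPT-330 and 16.7, 15.9 and 13.1 with KPT-330+CS. The KPT-330 libraries were below all others, the CS libraries were above DMSO, and KPT-330+CS overlapped both DMSO and CS. VEGFA fell by 1.13 ± 0.13 on the log2 scale with KPT-330 (edgeR, adjusted p = 1.38e-05), 2.18-fold lower, and rose by 0.44 ± 0.13 (edgeR, adjusted p = 0.0455) with CS. The CS call was lost with the replicate block, with only the compared groups and without DMSO replicate 2 or 3 or CS replicate 2 or 3. Added to KPT-330, CS raised VEGFA by 1.32 ± 0.13 (edgeR, adjusted p = 7.86e-06).

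TRIB3, a pseudokinase that feeds back on ATF4, was at 9.34 to 18.2 CPM and rose by 0.62 ± 0.093 with KPT-330 and 0.75 ± 0.093 with KPT-330+CS. With a GC correction over all libraries the KPT-330 value was 0.04 and neither call held. EIF4EBP1, an inhibitor of cap-dependent translation at 4.15 to 12.8 CPM, passed with KPT-330 (0.97 ± 0.27) and KPT-330+CS (0.76 ± 0.27). Both calls were lost with no filter and without DMSO replicate 3, and the second also with the replicate block and without DMSO replicate 2 or KPT-330+CS replicate 1 or 2. SESN2, a stress inhibitor of mTORC1, passed with KPT-330+CS (0.78 ± 0.24), a call lost with no filter and without KPT-330+CS replicate 1. VLDLR, a lipoprotein receptor gene at 0.164 to 0.936 CPM, passed with KPT-330+CS (1.80 ± 0.32) and was at 1.09 ± 0.33 with CS, which did not pass.

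**Figure D3:**
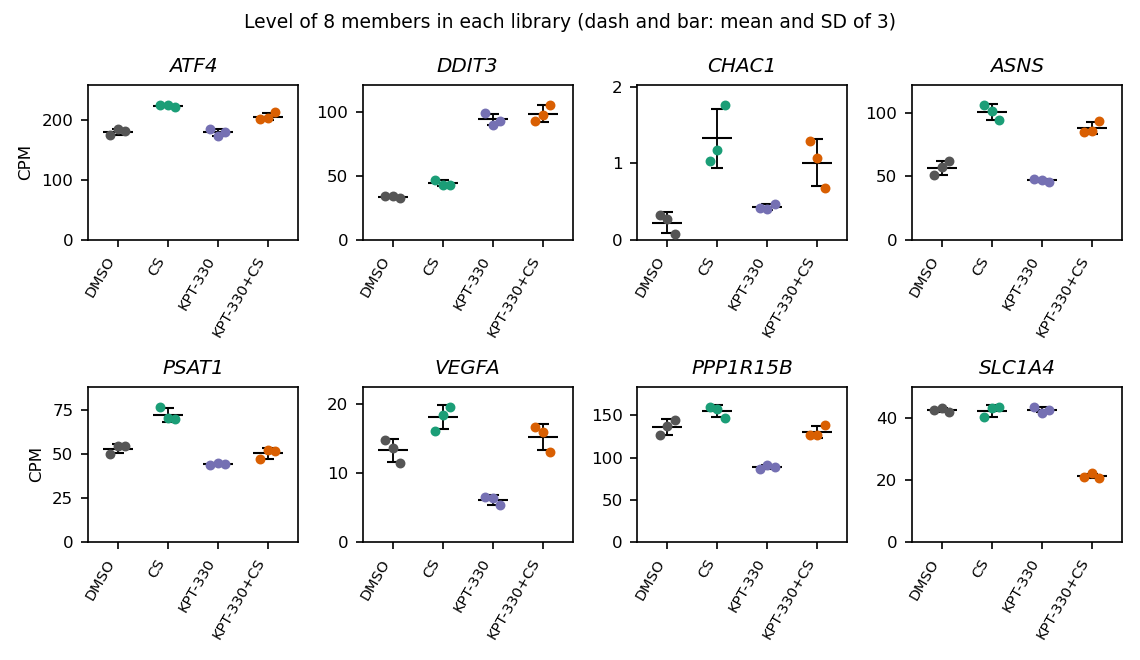
CPM (y axis, each from 0) of ATF4, DDIT3, CHAC1, ASNS, PSAT1, VEGFA, PPP1R15B and SLC1A4 in each library by group, with points for libraries and bars for the mean and SD of 3. ASNS and PSAT1 are highest with CS, CHAC1 is high in both groups with CS, and DDIT3 is high in both groups with KPT-330. VEGFA and PPP1R15B are low with KPT-330 alone, and SLC1A4 is low only with KPT-330+CS.

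The promoters of the members were read for the composite element that ATF4 and C/EBP proteins bind, written as TGATGNAA, or TTNCATCA on the other strand. RefSeq windows (GRCh38.p14) of 300 bases, 250 before the RefSeq start of the gene and 50 after, were matched for 31 of the 40 members, and none for EIF2AK1, NUPR1, PSPH, SHMT2, ALDH1L2, PYCR1, GPT2, VEGFA and EIF4EBP1. The element was in 6 of the 31 (19.4%), and in 1003 of all 27305 windows (3.67%). In SLC3A2 and SLC7A1 it lay after the RefSeq start, and in the other 4 before it. The RefSeq start differs from the end of the gene span in the count table, and by the wider spans of ASNS and CHAC1 given above both matches fall inside the gene. The stretches around the 4 matches before the RefSeq start are shown 5′ to 3′ on the strand of the gene, with the matching letters in capitals. Of these members ASNS, CHAC1 and ATF3 rose with CS, and ASNS and PPP1R15B fell with KPT-330.
ASNS (chr7:97872443-97872502, minus strand): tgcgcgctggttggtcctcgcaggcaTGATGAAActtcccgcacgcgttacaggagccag
CHAC1 (chr15:40953236-40953295, plus strand): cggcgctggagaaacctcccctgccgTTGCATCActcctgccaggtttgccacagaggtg
ATF3 (chr1:212565190-212565249, plus strand): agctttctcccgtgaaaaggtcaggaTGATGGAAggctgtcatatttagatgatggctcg
PPP1R15B (chr1:204412011-204412067, minus strand): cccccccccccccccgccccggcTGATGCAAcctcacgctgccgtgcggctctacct
The match began 68 bases before the RefSeq start in ASNS, 209 in CHAC1 (on the other strand), 191 in ATF3 and 227 in PPP1R15B. The letters are not in the windows of DDIT3, ATF5, STC2, PHGDH, PSAT1 or ADM2. A match in these letters is a description of the sequence, and binding was not measured.

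The effect of CS can be read both without KPT-330 (CS against DMSO) and with it (KPT-330+CS against KPT-330), in libraries that the comparisons do not share. On top of KPT-330, CS raised 16 of the 38 members and lowered 2, where 19.7% of all tested genes were higher and 17.9% lower, with a median of 0.19 beside -0.0013. Without the 5 scarce members 13 rose and 2 fell. Of the 13 members that rose with CS alone, 10 also rose when CS was added to KPT-330 and 0 fell. The 3 that did not pass there were DDIT3 (0.066 ± 0.063), SLC7A1 (-0.066 ± 0.086) and SLC6A9 (0.90 ± 0.49). Another 6 that did not pass with CS alone rose there, namely EIF2AK3, EIF2AK4, PPP1R15B, CTH, SLC38A2 and VLDLR, and the interaction passed for 4 of them, not for EIF2AK3 and VLDLR. SHMT2 and SLC1A4 fell. Across the 38 members the changes had the same sign in 24, with r of 0.518 and Spearman's rho of 0.43, given as a description over genes measured in the same libraries. Neither these signs nor the overlap above are set beside all tested genes, so they are not read as particular to the members. The fall of SHMT2 (-0.54 ± 0.20) was lost in 10 alternatives, among them the replicate block and leaving out any 1 KPT-330 library or KPT-330+CS replicate 2 or 3.

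Some of the calls with KPT-330 present were fragile as well. Those of PSAT1 (0.18 ± 0.062) and ADM2 (0.77 ± 0.29) were each lost without any 1 of the KPT-330 libraries. The call of PSAT1 was also lost without KPT-330+CS replicate 2 or 3, and that of ADM2 without KPT-330+CS replicate 1 or 2. PHGDH (0.42 ± 0.12) and CHAC1 (1.21 ± 0.35) did not pass without KPT-330 replicate 2 or KPT-330+CS replicate 1, and PHGDH also without KPT-330+CS replicate 2. EIF2AK3 did not pass without KPT-330+CS replicate 3.

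**Figure D4:**
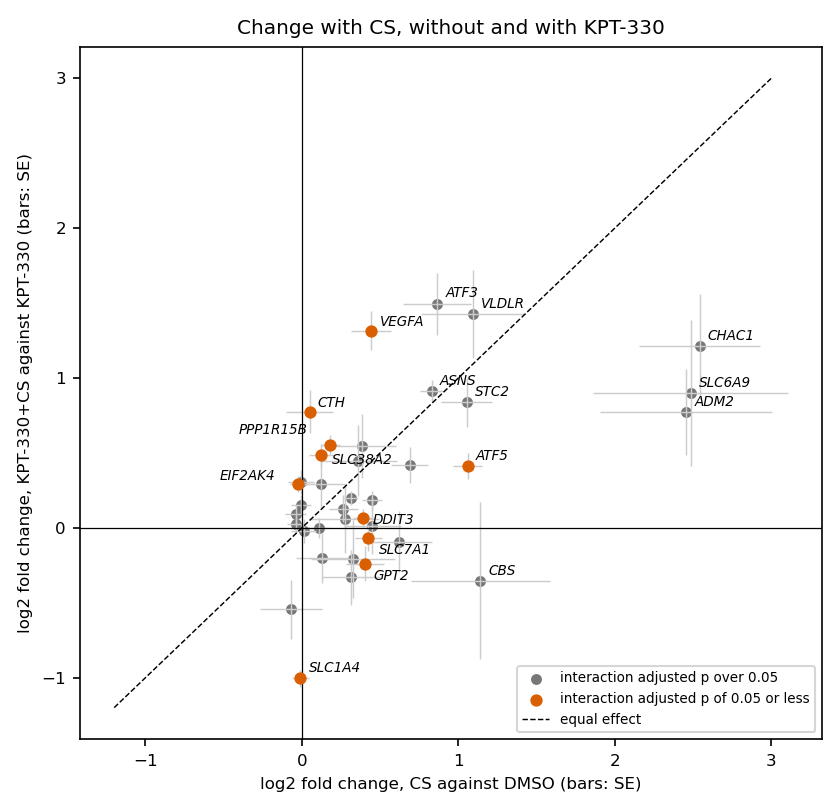
Log2 fold change of each tested member for CS against DMSO (x axis) and for KPT-330+CS against KPT-330 (y axis), 1 point per member with bars of 1 standard error, a dashed line of equal change, and orange points for members whose interaction passed. ASNS (0.83 and 0.91) and STC2 (1.05 and 0.84) lie near the line, VEGFA (0.44 and 1.32) lies above it, and SLC1A4 is at -1.0 on the y axis and near 0 on the x axis.

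The effect of KPT-330 was read in the same way without CS and, as KPT-330+CS against CS, with it. In the presence of CS 14 members were higher and 12 lower, where 26.1% of all tested genes were higher and 21.7% lower. Scaled by library size alone, 15 were higher and 6 lower, beside 33.7% and 15.6% of all genes. Without the 5 scarce members 13 were higher and 11 lower. DDIT3 (1.16 ± 0.064), ATF5 (1.0 ± 0.089), GPT2 (0.66 ± 0.12) and EIF2AK4 (0.68 ± 0.054) were among the higher, and ASNS (-0.20 ± 0.072), PSAT1 (-0.52 ± 0.062), MTHFD2 (-0.49 ± 0.057) and PPP1R15B (-0.25 ± 0.061) among the lower. The call of ASNS was lost without CS replicate 1 (edgeR, adjusted p = 0.132) or CS replicate 2 (edgeR, adjusted p = 0.0957). Of the 13 members that rose with KPT-330 alone 9 also rose in the presence of CS, and of the 5 that fell 4 also fell. The changes had the same sign in 28 of 38 members, with r of 0.683 and Spearman's rho of 0.674. These overlaps and signs too have no share of all tested genes beside them, and are not read as particular to the members.

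CS and KPT-330 were also set against each other directly. With CS 14 of the 38 members were higher than with KPT-330 and 9 were lower, where 20.2% of all tested genes were higher and 22.6% lower. The 9 lower are near the share of all genes. Without the 5 scarce members 12 were higher and 8 lower, and scaled by library size alone 10 of the 38 were higher and 10 lower, beside 15% of all genes higher and 28.2% lower. ASNS (1.11 ± 0.073), PSAT1 (0.71 ± 0.062), CHAC1 (1.63 ± 0.34), STC2 (0.98 ± 0.16), VEGFA (1.57 ± 0.13) and PPP1R15B (0.81 ± 0.062) were higher with CS. DDIT3 (-1.10 ± 0.064), ATF5 (-0.59 ± 0.089), GPT2 (-0.90 ± 0.12), ADM2 (-1.22 ± 0.34) and EIF2AK4 (-0.39 ± 0.054) were higher with KPT-330. Of these, DDIT3, ATF5 and ADM2 had also risen with CS against DMSO. The difference for ATF5 was lost with a GC correction.

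The interaction passed in 10 members, 5 higher and 5 lower than the sum of the single log2 fold changes. That is 13.2% of the 38 in each direction, where 8.04% of all tested genes were higher and 6.62% lower. A sum of log2 fold changes is a product of fold changes, so a member below it need not be below the sum of the increases in CPM. All 10 are among the 33 members over the minimum in every library. Beside SLC1A4, those below the sum were ATF5 (-0.65 ± 0.13), GPT2 (-0.64 ± 0.17), SLC7A1 (-0.49 ± 0.12) and DDIT3 (-0.32 ± 0.090). Those above it were VEGFA (0.87 ± 0.18), CTH (0.73 ± 0.21), PPP1R15B (0.37 ± 0.087), SLC38A2 (0.36 ± 0.11) and EIF2AK4 (0.32 ± 0.076). The calls of SLC1A4, VEGFA and PPP1R15B passed in every alternative run, while each of the others was lost in at least 1.

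GC content moved with the spread between replicates. Over the 33 members above the minimum in every library, the log2 difference between DMSO replicates 1 and 3 rose with the GC content of the gene (r of 0.793, a description over genes of the same 2 libraries), as did the differences between CS replicates 3 and 1 (r of 0.751) and between KPT-330+CS replicates 1 and 3 (r of 0.816). The members ranged from 38.6% to 66.2% GC, with a median of 54.4%. The slope on GC content also differed between groups, with all KPT-330 libraries (0.21 to 0.24) above every other library (at most 0.14). For members rich in GC, a change with KPT-330 and a GC bias of those libraries cannot be told apart. The part of GC content in the calls was not tested beyond the corrected fits given beside the results.

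**Figure D5:**
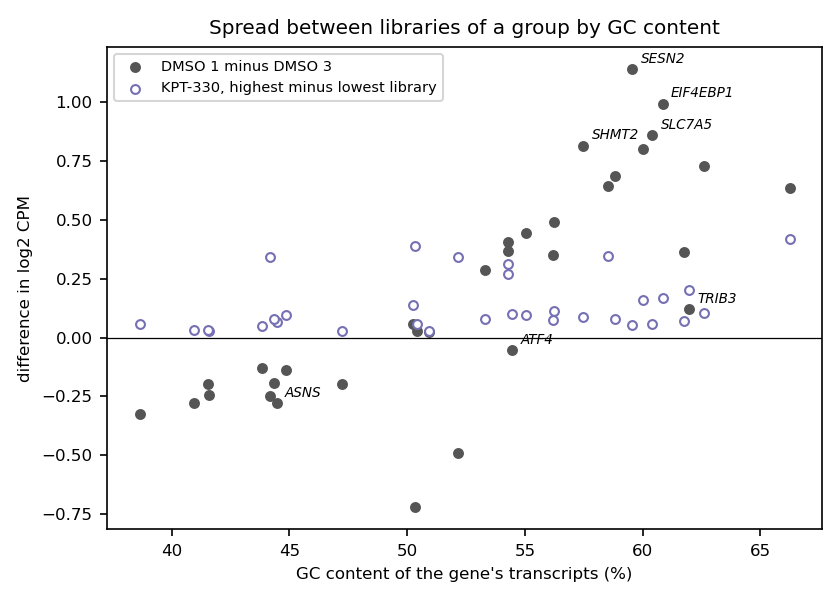
Difference in log2 CPM (y axis) between DMSO replicates 1 and 3 (filled points) and between the highest and the lowest KPT-330 library (open points) against GC content of the gene's transcripts in percent (x axis), for the 33 members over the count minimum in every library. The DMSO differences rise with GC content (r of 0.793), with SESN2, EIF4EBP1, SLC7A5 and SHMT2 near the top.

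Other genes of the pathway were more often lower than higher with KPT-330. Their counts stand beside the same shares of all tested genes, 3.76% higher and 5.13% lower with CS, 24.7% and 23.8% with KPT-330, and 29.3% and 26.2% with KPT-330+CS. Of 12 tested genes for eIF2, eIF2B and control of the kinases, 0 rose and 3 fell with CS, 1 rose and 9 fell with KPT-330, and 1 rose and 9 fell with KPT-330+CS, with medians of -0.13, -0.37 and -0.48. With CS the largest changes were those of EIF2S1, the eIF2 subunit that the kinases phosphorylate (-0.34 ± 0.071), and EIF2B3 (-0.30 ± 0.071), a subunit of the factor that recharges eIF2. DNAJC3, an inhibitor of the kinases, was at -0.23 ± 0.075 and did not pass with CS. With KPT-330 EIF2B3 fell by 0.69 and DNAJC3 by 0.71 on the log2 scale, and GCN1L1, the activator of EIF2AK4, was at 0.31 ± 0.16 and did not pass. Named after the values were seen, the third that fell with CS was EIF2B1, the 1 that rose with KPT-330 was EIF2B4, and the 1 that rose with KPT-330+CS was EIF2AK2, the kinase PKR.

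Of 9 tested further genes often counted as targets of ATF4, 1 rose and 2 fell with CS, 2 rose and 4 fell with KPT-330, and 3 rose and 4 fell with KPT-330+CS. KLHL24 rose by 0.60 ± 0.066 with CS and 1.77 ± 0.067 with KPT-330. DDIT4, an inhibitor of mTORC1, was at -0.55 ± 0.11 with CS, where it passed. SLC7A11, the cystine importer, was at -0.27 ± 0.12 with CS and did not pass, and fell by 2.8 on the log2 scale with KPT-330 (edgeR, adjusted p = 6.64e-09). LONP1, a mitochondrial protease gene, was at 0.46 ± 0.25 with KPT-330 and did not pass. The others that passed, named after the values were seen, were ALDH18A1 (lower with CS), TNFRSF10B (higher) and XPOT, MTHFD1L and GOT1 (lower) with KPT-330. With KPT-330+CS they were DDIT4 (0.90 ± 0.10), TNFRSF10B and KLHL24 (higher) and SLC7A11 (-1.87 ± 0.13), MTHFD1L, ALDH18A1 and GOT1 (lower).

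Of 12 genes for cytosolic aminoacyl-tRNA synthetases, which charge tRNAs with amino acids, 3 rose and 1 fell with CS, 0 rose and 10 fell with KPT-330, and 1 rose and 8 fell with KPT-330+CS. AARS (0.45 ± 0.058) and CARS (0.47 ± 0.067) rose with CS, and MARS was at 0.22 ± 0.083 and did not pass. With KPT-330 MARS (-0.75 ± 0.084) and GARS (-0.65 ± 0.067) fell, and AARS was at 0.072 ± 0.058 and did not pass. Named after the values were seen, YARS was the third that rose and WARS the 1 that fell with CS, and AARS was the 1 that rose with KPT-330+CS. The ER chaperones and genes of the XBP1 and ATF6 branches, which answer to the same ER stress as EIF2AK3, were mostly lower with KPT-330 and with KPT-330+CS. Of 15, 1 rose and 6 fell with CS, 0 rose and 13 fell with KPT-330, and 1 rose and 11 fell with KPT-330+CS, with medians of -0.14, -0.78 and -0.87. With CS HSPA5 (BiP), the main ER chaperone, was at -0.53 ± 0.062 and HSP90B1 at -0.57 ± 0.066, both called, and HERPUD1 was at 0.18 ± 0.064 and did not pass. With KPT-330 HSPA5 (-1.47 ± 0.064) and XBP1 (-1.31 ± 0.085) fell, and SDF2L1 was at -1.02 ± 0.45 and did not pass. The 1 that rose with CS and with KPT-330+CS was EDEM1, which helps clear misfolded glycoproteins, also named after its values were seen.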

How the data were processed

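The authors deposited raw read counts, as whole numbers for 64253 genes and 12 libraries, with gene lengths as another column in bases. Per the series design text, TruSeq version 2 libraries, which do not mark strand, were aligned to hg38 with STAR in a modified MAP-RSeq workflow, and reads were counted on Ensembl version 78. How reads were assigned to genes, and with which strand setting, is not given in the sources used here. Genes that overlap on opposite strands may therefore share reads. That text also names edgeR with TMM for the study's own tests, with thresholds of 0.05 for the adjusted p and 2 for the size of the log2 fold change.

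Here the counts were filtered with filterByExpr by group, scaled by TMM and tested with edgeR 4.0.16 (R 4.3.3), using the robust two-sided quasi-likelihood F-test on 19460 genes in 1 fit of all 12 libraries which left 8 residual degrees of freedom. There were 7 contrasts: the 3 treatments against DMSO, the combination against each single drug, CS against KPT-330, and the interaction. Standard errors are the log2 fold change over the square root of F. The members and lists were chosen with earlier results of these data known. Members are given in every library where they passed with CS or in the interaction, or were among the 3 highest or 3 lowest that passed with KPT-330 or KPT-330+CS; ATF4, DDIT3, CHAC1, ASNS, EIF2AK3 and EIF2AK4 are always given. From each further list the 2 largest that passed and 1 that did not are named for CS and for KPT-330.

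Alternatives were DESeq2 1.42.0, DESeq2's size factors, library size alone, no filter, a filter of 1 CPM in 3 libraries, a GC correction (lowess, span 0.3), the replicate number as a block, only the compared groups, and each library left out in turn. A GC correction within groups and a run without the lowest-GC-slope libraries were chosen after the data were seen. Of the gene identifiers 56105 were in GENCODE 44, 99.92% of them at the same place, and GC content was known for 97.0% of tested genes.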

Additional observations from a re-analysis of the deposited data

Results flagged for a closer look

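In 10 members the log2 fold change with both drugs differed from the sum of the single ones, by edgeR's test of the interaction. The largest below the sum was SLC1A4 (-1.0; edgeR, adjusted p = 7.79e-06), where the change on adding CS was -0.0092 ± 0.056 without KPT-330 and -1.0 ± 0.057 with it. Also below the sum were ATF5 (-0.65; edgeR, adjusted p = 0.00452), GPT2 (-0.64; edgeR, adjusted p = 0.0219), SLC7A1 (-0.49; edgeR, adjusted p = 0.0177) and DDIT3 (-0.32; edgeR, adjusted p = 0.0299). ATF5 and DDIT3 rose with each single drug. Above the sum were VEGFA (0.87; edgeR, adjusted p = 0.00659) and PPP1R15B (0.37; edgeR, adjusted p = 0.0127), which were low with KPT-330 alone and overlapped DMSO with both drugs. CTH (0.73; edgeR, adjusted p = 0.0338), SLC38A2 (0.36; edgeR, adjusted p = 0.0448) and EIF2AK4 (0.32; edgeR, adjusted p = 0.0146) were highest with both drugs. The calls of SLC1A4, VEGFA and PPP1R15B held in every alternative run. Leaving out single libraries ended the SLC38A2 call in 9 of 12 runs, DDIT3 and CTH in 7, GPT2 in 6, and SLC7A1 and EIF2AK4 in 2. DESeq2, its size factors in edgeR and the replicate block also ended those of DDIT3 and SLC38A2, no filter that of EIF2AK4, and a GC correction that of ATF5. The CTH call was lost without DMSO replicate 2 or 3, CS replicate 2 or 3, KPT-330 replicate 2 or 3 or KPT-330+CS replicate 2, and the GPT2 call without DMSO replicate 2 or 3, CS replicate 2 or 3, KPT-330 replicate 3 or KPT-330+CS replicate 3. The SLC7A1 call was lost without DMSO replicate 2 or KPT-330 replicate 3, and the EIF2AK4 call without CS replicate 3 or KPT-330 replicate 1.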

How the results depend on the processing

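Over all alternatives run, 6 of 13 member calls held throughout for CS against DMSO, 12 of 18 for KPT-330, 20 of 27 for KPT-330+CS and 11 of 18 for KPT-330+CS against KPT-330, as did 16 of 26 against CS, 3 of 10 for the interaction and 15 of 23 for CS against KPT-330. Members higher with CS numbered 20 with a GC correction (10.5% of all genes), 25 with it made within groups (10.6%) and 7 with only the compared groups (0.897%). With KPT-330, 20 were higher with the correction within groups, beside 32.9% of all genes. Lower were 3 with library size alone (14.9% of all genes), 9 with a GC correction (28.4%) and 8 with it made within groups (28.5%). With KPT-330+CS against DMSO, 7 and 6 were lower with the corrections, beside 34.2% and 30.9% of all genes. Against KPT-330, 1 was lower with library size alone (15.6% of all genes), no filter (8.39%) and the filter of 1 CPM (20.4%). The count was also 1 with the replicate block (15.7%) and without the lowest-GC-slope libraries (18.8%), and 5 with either correction (26.4% and 28.1%). Against CS, 6 were lower with library size alone, beside 15.6% of all genes. In the interaction 14 members were below the sum with the correction within groups, beside 19% of all genes. Leaving out 1 library gave 10 to 13 higher and 0 lower with CS, 11 to 15 and 5 to 6 with KPT-330, 21 to 23 and 2 to 4 with KPT-330+CS, 12 to 15 and 1 to 2 for KPT-330+CS against KPT-330, 11 to 15 and 8 to 10 against CS, 2 to 6 and 2 to 7 for the interaction, and 12 to 15 and 8 to 10 for CS against KPT-330. In those runs the shares of all genes higher and lower were 1.79% to 4.37% and 1.8% to 8.98% with CS. They were 19.8% to 26.9% and 19.4% to 25.3% with KPT-330, and 25.7% to 28.6% and 22.7% to 25.8% with KPT-330+CS. For KPT-330+CS against KPT-330 they were 14.3% to 17.9% and 13.2% to 17%, and against CS 21.6% to 24.1% and 18.1% to 20.3%. For the interaction they were 4.44% to 13.2% and 4.16% to 10.4%, and for CS against KPT-330 15.4% to 20.3% and 16.8% to 22.7%. The sign changed for ATF4 with KPT-330 (0.15 with library size alone) and, with the GC correction, for PYCR1 (-0.25 with KPT-330, -0.20 with KPT-330+CS, 0.50 for CS against KPT-330), CEBPG (-0.12), MTHFD2 (-0.10) and SLC3A2 (0.11) for KPT-330+CS against KPT-330, and PCK2 (0.35) and TRIB3 (0.17) for CS against KPT-330; the cause was not tested. Replicate numbers did not pair the libraries: over 18 same-numbered pairs r was -0.38 to 0.40, with 2 over 0.1, and 0 libraries correlated best with their own number. With the replicate block 12 members were higher with CS (2.45% of all genes), 13 with KPT-330 (22.7%) and 23 with KPT-330+CS (28%). Depth limits CBS, SLC6A9, CHAC1, VLDLR and ADM2, with 7 to 30 reads over the DMSO libraries.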
